A study of Capra hircus with 27 samples.

Results

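Gene expression was compared between goats living at 3000 m and goats living at 2000 m, with heart, lung and skeletal muscle analysed jointly in 1 model. The comparison used every library labelled 2000 m or 3000 m, which were 18 of the 27 RNA-seq libraries of the series, with 3 libraries for each tissue at each altitude. The 2000 m population came from Zhaotong and the 3000 m population from A'ba, and the labels give an age of about 3 years for all animals and no other treatment. The other 9 libraries, from a 600 m population at Ya'an, did not enter the comparison. They serve below as a reference level and enter a fit only where this is said. Altitude, population and place coincided in this design and cannot be told apart. The study describes its goats of the 600 m and 3000 m populations as unrelated adult females, and the sex and kinship of the 2000 m goats were not stated in the sources used here.

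Low oxygen pressure at altitude bears on all 3 tissues. The lung takes up oxygen and its vessels constrict when alveolar oxygen falls, the heart depends almost entirely on oxidative metabolism, and skeletal muscle adjusts its fibre types, capillaries and mitochondria to activity and oxygen supply. In many cell types, hypoxia-inducible factors are stabilised when oxygen is scarce and activate genes of glycolysis, angiogenesis and red cell production. The annotation IDs of this data set could not be matched to gene symbols, so no gene of these pathways could be looked up, and the results below are carried by the behaviour of the genes across tissues and animals.

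Expression was given as FPKM, in which the fragments of a gene are divided by the length of its transcript and the size of the library. Of 22131 genes, 13782 had a mean FPKM above 0.5 over the 18 libraries and were tested, and 8349 were left out. The lowest mean inside this limit was 0.501 and the highest mean outside it was 0.49996 FPKM. Without symbols the tissue labels could not be checked against marker genes. As a substitute, each library was compared with all others, and 18 of 18 were nearest to a library of their own tissue. Pearson's r across genes averaged 0.971 (SD 0.0118, 18 pairs) within a tissue and altitude, 0.965 (SD 0.0102, 27 pairs) within a tissue between altitudes, and 0.711 (SD 0.103, 108 pairs) between tissues. The absolute depth was unknown, and the estimated relative depth of the 18 libraries lay between 0.788 and 1.26 (geometric mean 1). Every 3000 m heart library (0.788 to 0.912) was below every 2000 m heart library (0.929 to 0.951), while the ranges overlapped in lung and muscle. The part of this difference in the heart changes below was not tested. In heart, the 10 genes of highest FPKM together made up 23.6% to 26.5% of the total at 2000 m and 31.2% to 35.4% at 3000 m. In lung, replicate 3 at 3000 m stood apart, with 22.6% against 10.3% to 13.3% in the other lung libraries. The joint comparison below called 187 genes without that library and 127 with it.

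In the joint model, 127 of 13782 genes (0.921%) differed between the altitudes at an adjusted p of at most 0.05 (limma with Benjamini-Hochberg adjustment). Expression was higher at 3000 m for 21 genes (0.152%) and lower at 3000 m for 106 genes (0.769%). The median change of the 21 genes that rose was 0.72 and of the 106 genes that fell was -0.78 on the log2(FPKM + 1) scale, beside a median of -0.01 over all genes tested. The rises ran from 0.43 to 1.38. The falls ran from -0.35 to -1.94 for all genes but 1, which fell by 10.18. A change of at least 2-fold on this scale was reached by 36 of the called genes (0.261%), 4 of them higher and 32 lower at 3000 m. In bulk tissue, fewer cells of a type and less RNA per cell cannot be told apart. The balance of directions depended on scaling, since median-of-ratios factors gave 41 higher and 95 lower, or 30.1% higher in place of 16.5%, while the median change of all genes moved only from -0.01 to 0.01.

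The labels do not say which libraries came from the same goat. Replicate numbers were taken to mark 3 animals per altitude, and the number within an altitude was entered as a random block. The estimated correlation within a block was 0.0415. Same-numbered libraries deviated together in all tissue pairs at 3000 m and between heart and lung at 2000 m, but the 2000 m muscle numbers did not follow those of heart and lung. With no block, 179 genes (1.3%) were called, all 127 among them. With the 2000 m muscle libraries entered unpaired, 59 genes were called in place of 127, with 7 higher and 52 lower. When the tissues were averaged to 3 values a side, limma called 3 genes (0.0218%), all lower at 3000 m, and 1675 genes (12.2%) had an unadjusted p under 0.05. These animal means join libraries by number, so at 2000 m they may mix goats. Their p-values here and below carry that limit. The joint fit takes its block from the same numbers, so its p-values carry that limit too. Without the 3 libraries numbered 1 at 2000 m only 2 genes were called, without those numbered 3 at 2000 m 11 genes, and without those numbered 2 at 3000 m 302 genes. Each of the 127 genes kept its direction in every one of the 39 alternative fits in which it was tested. These fits reuse the libraries by which the genes were chosen, so a kept direction adds no support.

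**Figure D1:**
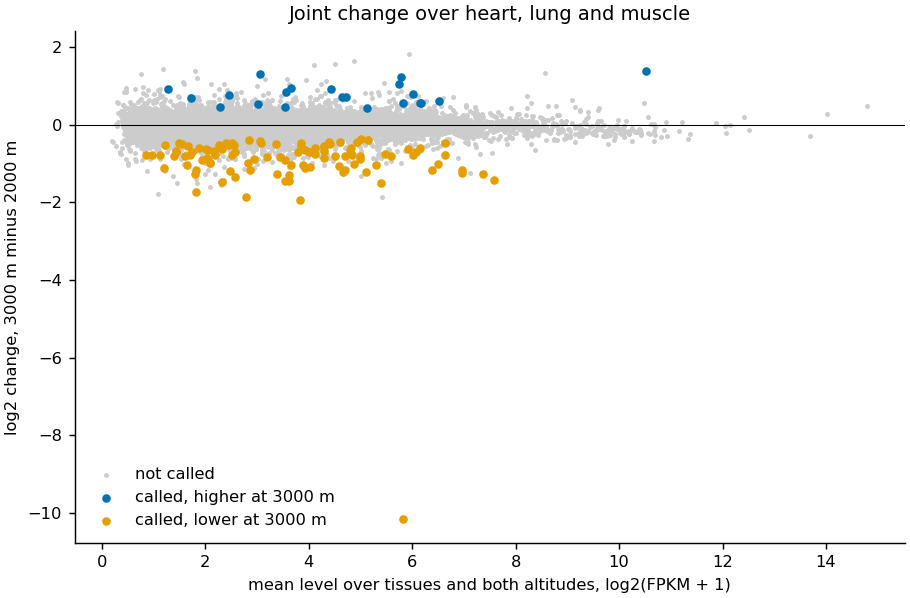
Joint log2 change in FPKM + 1 (3000 m minus 2000 m, vertical axis) against the mean log2(FPKM + 1) over the 18 libraries (horizontal axis) for 13782 genes. Coloured points are the 21 genes higher and the 106 genes lower at 3000 m, and 1 gene stands apart from all others with a change of -10.18.

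The gene with the largest fall was GOAT_ENSP00000364092. In 2000 m heart its 3 libraries held 2722, 2458 and 1352 FPKM, in lung 2143, 1682 and 1085 FPKM, and in muscle 3453, 1270 and 2347 FPKM. In 3000 m heart it was listed at 0, 1.84 and 0 FPKM, in lung at 1.39, 4.996 and 0 FPKM, and in muscle at 0, 1.38 and 0 FPKM. Every 2000 m library was thus above 1000 FPKM and every 3000 m library at or below 4.996 FPKM, with 5 of 9 listed at 0. At 2000 m the gene took ranks 21 to 98 among all genes of its library. The joint change was -10.18 (SE 0.35, limma adjusted p = 1.93e-12), and the changes per tissue were -10.52 in heart, -9.34 in lung and -10.67 in muscle. The size of this change follows the pseudocount (-12.26 with 0.1 in place of 1). The test was passed with the animal means (limma adjusted p = 0.000155), which rest on the replicate numbers. It was also passed in all 39 alternatives, which list the fit without muscle again as heart and lung only. The 600 m libraries held both levels, with 9.92, 5983 and 4723 FPKM in heart and 2.06, 4385 and 3141 FPKM in lung, so that replicate 1 was low in both tissues, while muscle held 2734, 2254 and 3605 FPKM. Muscle replicates 1 and 2 at 600 m were near-identical libraries, elsewhere counted as 1 sample. Whether the 600 m muscle numbers follow those of heart and lung was not tested.

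The second largest fall among genes without overlapping libraries was that of GOAT_ENSBTAP00000026100, which was most abundant in lung. Lung held 146, 114 and 188 FPKM at 2000 m and 32.4, 17.3 and 69.3 FPKM at 3000 m. Heart went from 15.1, 12.4 and 17.9 FPKM to 4.73, 1.11 and 6.55 FPKM, and muscle from 13.97, 4.02 and 10.1 FPKM to 1.56, 0.64 and 2.65 FPKM. For this ID alone, the groups did not overlap in any tissue, and replicate 2 was lowest in 3000 m libraries of all tissues. The joint change was -1.94 (SE 0.28, limma adjusted p = 0.00456), but the test was not passed with the animal means (adjusted p = 0.140) nor without heart (0.0653) or muscle (0.0617). The annotation holds a second copy of this gene, whose levels did not follow it, with 0.18, 32.1 and 0.31 FPKM in 2000 m lung and 0, 29.7 and 39.9 FPKM in 3000 m lung. In muscle the copy held 0.25, 0 and 1.90 FPKM at 2000 m and 0, 1.65 and 1.75 FPKM at 3000 m. Fragments may have been divided between the copies, so the values of both are uncertain. With the FPKM of both IDs added, the altitudes overlap in muscle. There, replicate 2 at 2000 m (4.02 and 0 FPKM) falls below replicate 3 at 3000 m (2.65 and 1.75 FPKM). In lung and muscle, replicate 1 is then the lowest 3000 m library. The lack of overlap in muscle and the order of the replicates thus depend on that division, and the copies were not tested together.

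The largest rise was that of GOAT_ENSBTAP00000014529, one of the most abundant genes of the heart, at rank 3 to 5 in every 2000 m and 3000 m heart library. Heart held 13561, 21915 and 12707 FPKM at 2000 m (mean 16061, SD 5088, n = 3) and 37569, 35289 and 29319 FPKM at 3000 m (mean 34059, SD 4260, n = 3). Muscle went from 1716, 2487 and 1412 FPKM to 10729, 4605 and 7475 FPKM, and lung, where the gene was scarce, from 37.9, 20.8 and 20.7 FPKM to 41.5, 38.6 and 96.6 FPKM. The libraries of the 2 altitudes did not overlap in any tissue, narrowly so in lung. The joint change was 1.38 (SE 0.24, limma adjusted p = 0.0107). It was not passed with the animal means (adjusted p = 0.108), with the 600 m libraries in the fit (0.371), or without heart (0.0981), lung (0.0534) or muscle (0.160).

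The second largest rise among genes without overlapping libraries was that of goat_GLEAN_10001033, which was almost confined to heart, where it took ranks 7 to 11 at 2000 m and 3000 m. Heart held 8413, 6145 and 7823 FPKM at 2000 m (mean 7460, SD 1177, n = 3) and 11675, 11310 and 9517 FPKM at 3000 m (mean 10834, SD 1155, n = 3). The largest difference on the log2 scale was in muscle, at 2.19, 0.79 and 1.45 FPKM against 7.09, 20.0 and 4.63 FPKM, and lung held 1.52, 2.19 and 1.26 FPKM against 5.34, 3.10 and 6.504 FPKM. In each tissue every 3000 m library was above every 2000 m library. The joint change was 1.24 (SE 0.26, limma adjusted p = 0.0277). By tissue the change was 0.55 in heart (limma adjusted p = 0.622), 1.14 in lung (0.252) and 2.03 in muscle (0.0199), so only muscle passed. The joint test was not passed with the animal means (limma adjusted p = 0.0556), after quantile normalization (0.0676), or without heart (0.0943), lung (0.128) or muscle (0.135). The summed share of the 10 most abundant genes was higher in 3000 m than in 2000 m heart. GOAT_ENSBTAP00000014529 was among those 10 in every heart library of these altitudes and goat_GLEAN_10001033 in all but 1 (replicate 2 at 2000 m, rank 11), and the part of that share in their changes was not tested.

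**Figure D2:**
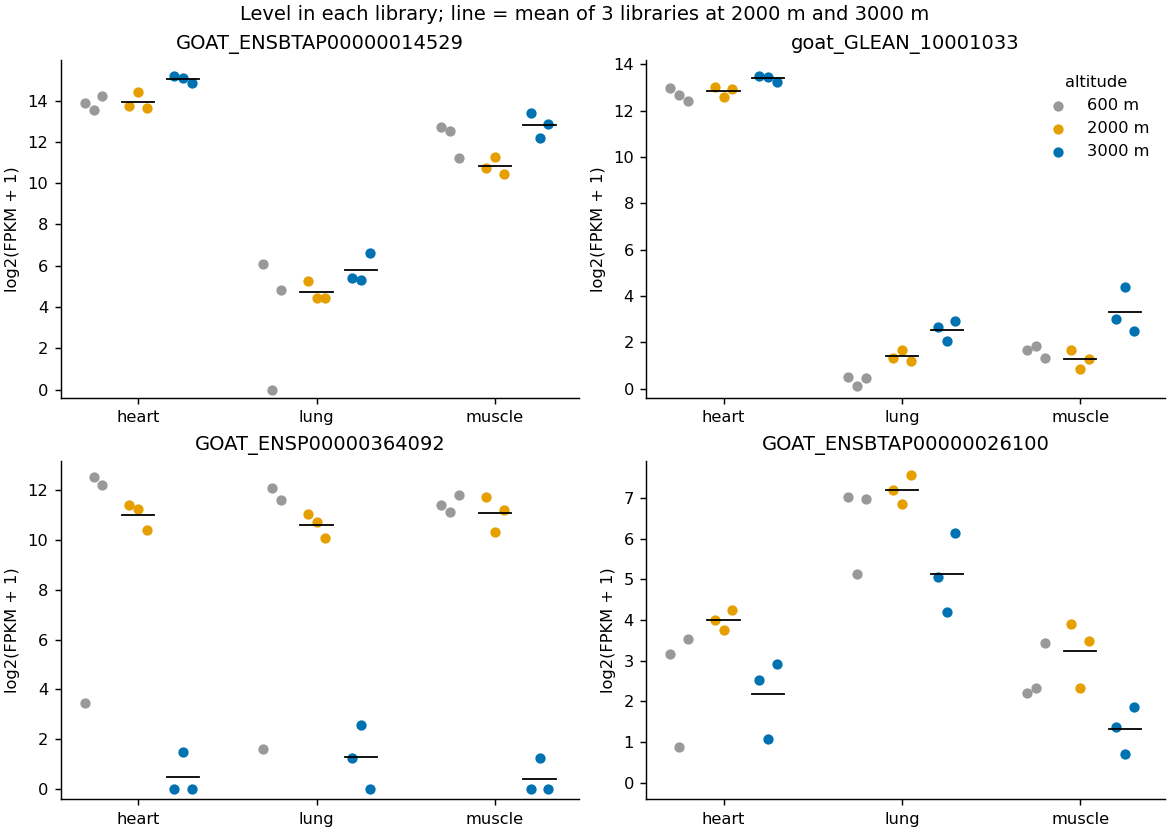
Level as log2(FPKM + 1) (vertical axis) of 4 genes in each library of heart, lung and muscle at 600 m, 2000 m and 3000 m, 1 point per library, with the mean of 3 libraries as a line at 2000 m and 3000 m. For GOAT_ENSP00000364092 every 2000 m library is above 1000 FPKM and every 3000 m library is at or below 4.996 FPKM, while the 600 m libraries hold both levels.

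Most of the genes that rose were most abundant in heart, and most of those that fell in lung. Of the 21 genes that rose, 14 (66.7%) had their highest mean level in heart, 5 in lung and 2 in muscle. Of the 106 genes that fell, 87 (82.1%) were highest in lung, 12 in heart and 7 in muscle. Among all 13782 genes, heart was highest for 20.4%, lung for 65.9% and muscle for 13.7%. Lung exceeded both other tissues at least 2-fold for 62 of the 106 genes that fell (58.5%), beside 27.9% of all genes, and heart did so for 9 of the 21 that rose (42.9%), beside 4.45% of all genes. These shares describe the lists and were given no test. The share of rising genes highest in heart was 50% after quantile normalization and 25% without the 3 libraries numbered 1 at 3000 m.

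**Figure D3:**
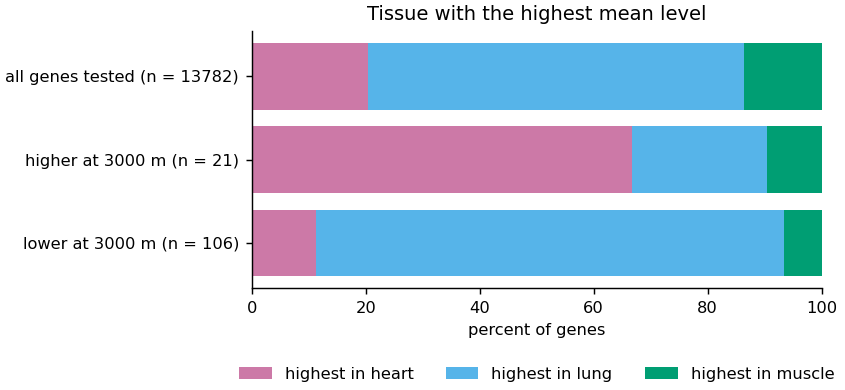
Share of genes in percent (horizontal axis) whose mean level over the 6 libraries of a tissue was highest in heart, lung or muscle, for all genes tested and for those higher or lower at 3000 m (vertical axis). Heart accounts for 66.7% of the rising genes against 20.4% of all genes, and lung for 82.1% of the falling genes against 65.9%.

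Nearly all called genes changed in the same direction across tissues. By their means, and however small the change, 126 of the 127 called genes changed in the same direction in heart, lung and muscle. The joint test favours this, and 4519 of the 13782 genes tested did so. The remaining gene fell in heart and lung and was listed at 0 in every muscle library. For the genes that fell, the median was -0.78 in heart, -0.79 in lung and -0.72 in muscle, and for those that rose it was 0.96 in muscle, 0.81 in heart and 0.38 in lung. Of the called genes, 119 of 127 had a mean FPKM above 0.5 in every tissue, beside 11277 of the 13782 genes tested. By kind of annotation ID, 63 called genes carried ENSBTAP, 56 ENSP and 8 GLEAN IDs, beside 6502, 6235 and 1045 of the genes tested, and 11 of the 127 were marked as copies, whose reads may be shared, beside 344 of the 13782.

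The libraries were also compared without a model. In 79 genes (0.573%) the 3 libraries of an altitude lay wholly above the 3 of the other altitude in each tissue and in the same direction, 10 of them higher (0.0726%) and 69 lower (0.501%) at 3000 m. Of these, 9 and 52 were also called in the joint test. The number was 64 after quantile normalization and 71 with median-of-ratios factors. When all 9 libraries of an altitude were set against all 9 of the other regardless of tissue, 3 genes were separated, all higher at 2000 m, and for 1 of them, GOAT_ENSP00000364092, the gap was at least 5-fold.

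The animal means, which rest on the replicate numbers, called 3 genes. Besides GOAT_ENSP00000364092, a gene highest in lung held 16.8, 16.3 and 18.1 FPKM in 2000 m lung and 5.60, 6.53 and 6.14 FPKM in 3000 m lung. Its heart values were 7.86, 7.68 and 7.34 FPKM against 2.41, 2.05 and 1.76 FPKM, and its muscle values 5.14, 4.22 and 4.36 FPKM against 1.46, 1.49 and 1.497 FPKM. The altitudes were far apart in each tissue, with a joint change of -1.34 (SE 0.08, limma adjusted p = 1.06e-08, and 0.00563 for the animal means). At 600 m this gene held 1.42, 1.36 and 2.23 FPKM in heart and 5.41, 6.04 and 7.37 FPKM in lung, near the 3000 m levels, but 11.4, 13.1 and 4.18 FPKM in muscle. The muscle values of 11.4 and 13.1 FPKM are from near-identical libraries, elsewhere counted as 1 sample, and 4.18 FPKM lies just below the 2000 m muscle values. The third gene was expressed in lung and muscle and at or below 0.24 FPKM in every 2000 m and 3000 m heart library. It fell from 141, 172 and 178 FPKM to 46.3, 46.3 and 33.8 FPKM in muscle and from 52.9, 54.5 and 65.1 FPKM to 20.9, 25.9 and 22.3 FPKM in lung. The joint change was -1.10 (SE 0.21, limma adjusted p = 0.0156, and 0.0235 for the animal means). This gene's change also differed between tissues (limma interaction F test, adjusted p = 0.00206), at -0.08 in heart, -1.28 in lung and -1.94 in muscle. The joint value is thus an average over unlike changes. Both genes were chosen after their values were seen, and their IDs carry no symbol. The first of them and GOAT_ENSP00000364092 were the only 2 genes called in all 6 fits that left out a replicate number of an altitude, with the animal means, in all 18 fits that left out a library, and without each tissue.

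Fitted as 6 groups with a shared spread, the same 18 libraries called 39 genes in heart (0.283%), 96 in lung (0.697%) and 94 in muscle (0.682%). In lung 74 were lower (0.537%) and 22 higher (0.16%) at 3000 m. In heart 24 were lower (0.174%) and 15 higher (0.109%), and in muscle 44 were lower (0.319%) and 50 higher (0.363%). Fitted on its own 6 libraries, each tissue gave 10, 1 and 1 called genes in the same order. When the shared fit was restricted to the 11277 genes above 0.5 FPKM in every tissue, the counts were 11, 23 and 65. Lung counts fell to 12 with a pseudocount of 0.1.

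The change between altitudes differed between tissues for 18 genes (0.131%, limma interaction F test, adjusted). By sign alone, however small the change, 13 of these went opposite ways in different tissues. One such gene changed by 1.24 in lung, -0.0012 in heart and 0.0007 in muscle. No gene of the 18 passed the adjusted test per tissue in opposite directions. The strongest was a gene of low abundance. In lung it fell from 4.26, 2.89 and 4.62 FPKM to 0.27, 0.19 and 0.50 FPKM, and in heart it held 0.49, 0.20 and 0.80 FPKM at 2000 m and 2.47, 1.05 and 1.81 FPKM at 3000 m. Muscle held 0.50, 0.27 and 0.51 FPKM against 0.65, 0.40 and 1.201 FPKM, which overlap. The change was -1.89 in lung (limma adjusted p = 0.000491), 0.88 in heart (0.103) and 0.27 in muscle (0.672), and the test of the difference gave F = 49.0 (adjusted p = 0.00206). Of the 18 genes, 12 had a mean FPKM below 0.5 in at least 1 tissue, and the count was 0 without the 3 libraries numbered 1 at 3000 m, where 1122 genes still had an unadjusted p under 0.05.

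The 600 m libraries, which did not enter the joint test, gave a level for the called genes in a further population. Levels were centred for each gene and tissue on the middle of the 2000 m and 3000 m means, and the median over genes was taken in each library. For the 106 genes that fell, lung libraries lay at 0.34 to 0.42 at 2000 m, -0.40 to -0.32 at 3000 m and -0.15 to 0.08 at 600 m on the log2 scale. Muscle lay at 0.17 to 0.60, -0.39 to -0.31 and -0.11 to 0.03. The 600 m libraries were thus between the other altitudes in both tissues, a position which the choice and centring of the genes favour. In heart the 600 m libraries lay at -0.52 to -0.07, beside 0.35 to 0.43 at 2000 m and -0.47 to -0.24 at 3000 m. Gene by gene, the 600 m mean of the genes that fell was beyond the 2000 m level for 15, nearer to 2000 m for 32, nearer to 3000 m for 24 and beyond the 3000 m level for 35 genes. Over all 13782 genes these counts were 4889, 1026, 1120 and 6747. Genes chosen for a difference between 2000 m and 3000 m leave more room for a level in between. Nothing is therefore read from these counts or from library medians that lie in between. For the 21 genes that rose, the 600 m heart libraries lay at -0.23 to -0.13, also between 2000 m (-0.37 to -0.25) and 3000 m (0.30 to 0.40). The 600 m lung libraries lay at 0.10 to 0.27, which overlaps the 3000 m range of 0.18 to 0.23. The 600 m muscle libraries, at -0.07 to 0.22, lay between 2000 m (-0.66 to -0.37) and 3000 m (0.32 to 0.62).

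**Figure D4:**
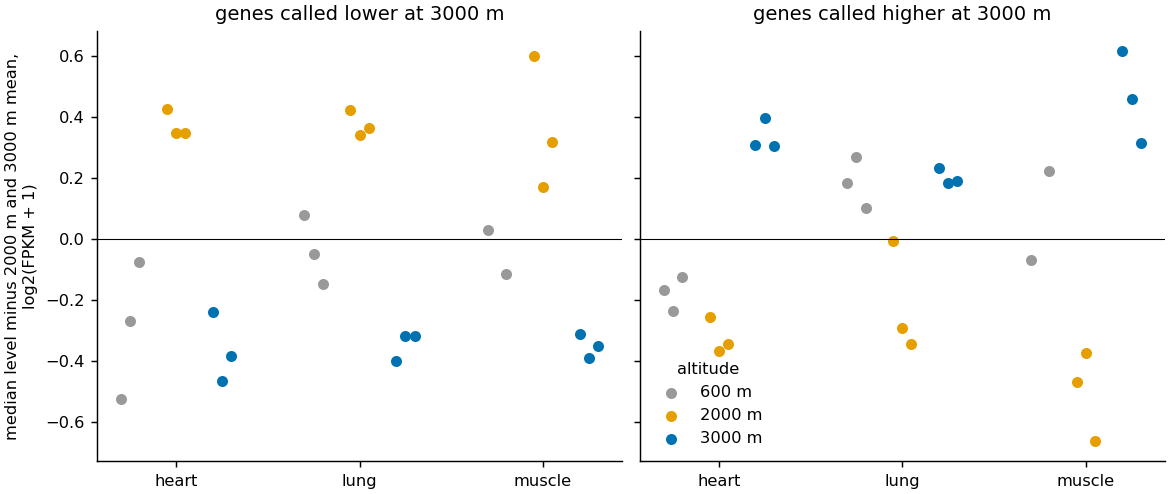
Median centred level (log2 scale, vertical axis) of the 21 genes higher and the 106 genes lower at 3000 m, 1 point per library, in heart, lung and muscle at 600 m, 2000 m and 3000 m, where muscle at 600 m has 2 points because a pair of near-identical libraries was counted once. The separation of 2000 m from 3000 m follows from the choice of genes. The 600 m libraries lie between them for the falling genes in lung and muscle, a position which that choice also favours.

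Among the 100 most abundant genes of each tissue, 3 were called in heart, all higher at 3000 m, 2 in lung, both lower, and 1 in muscle, which was higher. Over all genes tested, 0.921% were called. The count in muscle was near that share and those in heart and lung exceeded it by few genes, so nothing is read from them. The median change of these abundant genes in their own tissue was 0.02 in heart, -0.36 in lung and -0.08 in muscle. Without lung replicate 3 at 3000 m, the lung median was -0.53.

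After each gene was centred within its tissue, the first principal component of the 18 libraries held 17.2% and the second 13.5% of the remaining variance. The altitudes were separated along the diagonal of these components, with a sum of both scores at or below -11.3 in every 2000 m library and at or above 14.6 in every 3000 m library. This direction was chosen after the scores were seen and was given no test.

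**Figure D5:**
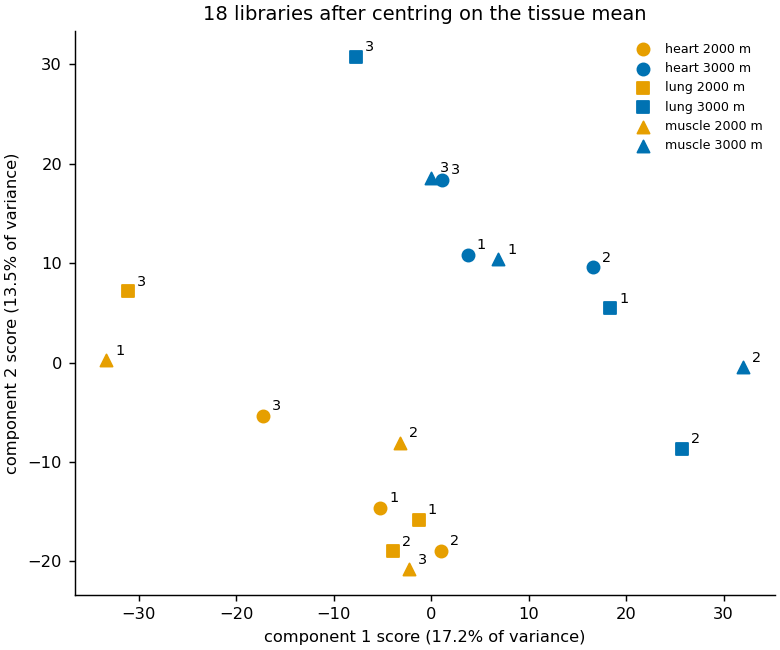
Scores of the 18 libraries on the first (17.2% of variance, horizontal axis) and second (13.5%, vertical axis) principal components of log2(FPKM + 1) after centring within each tissue, with colour for altitude, shape for tissue and the replicate number beside each point. The 9 libraries of 2000 m lie to the lower left of the 9 libraries of 3000 m.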

How the data were processed

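RNA was extracted with TRIzol and made into strand-specific TruSeq libraries, per the labels. The authors aligned reads with TopHat2 2.0.11 and estimated FPKM with Cufflinks 2.2.1, per the submitters' processing notes, against the goat genome CHIR_1.0. The study's methods describe the 600 m and 3000 m animals, and say nothing of the handling of the 2000 m animals. The authors deposited log2(FPKM + 1) values, from which FPKM was recovered. Without read counts, neither absolute depth nor counting error is known. Low values gave relative depth, using genes below 0.15 FPKM in both libraries of a pair (129 of 153 pairs kept, SD 0.0305 on the log2 scale).

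Genes whose mean over the 18 libraries exceeded 0.5 FPKM were tested with limma on log2(FPKM + 1), using lmFit and eBayes (trend of variance with mean), with tissue and altitude as terms and the replicate number within an altitude as a random block (duplicateCorrelation). Changes per tissue and the interaction came from a model of 6 groups. P-values were two-sided and adjusted after Benjamini and Hochberg, with a threshold of 0.05. A change on this scale understates that of scarce genes. The study used Cuffdiff within each tissue, in place of which limma was used. P-values measure the spread between these libraries. The numbers pair the samples at 3000 m, where deviations of same-numbered libraries of different tissues correlated at 0.148 to 0.287, and for heart and lung at 2000 m (0.232 to 0.363). They do not for muscle at 2000 m (-0.331 to 0.081). Muscle replicates 1 and 2 at 600 m differed by a robust SD of 0.0868 on the log2 scale, against 0.201 to 0.502 for other replicate pairs, and were counted as 1 sample, which was decided after seeing the data.

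The named genes were the 2 with the largest rise and the 2 with the largest fall among called genes whose libraries did not overlap in any tissue, and the gene with the smallest interaction p. None of the 22131 IDs (0) matched the gene table used here, of another goat assembly, so planned lists of hypoxia, tissue and cell type genes could not be used and no sequence or position is given. The comparison, rules and lists were chosen with earlier results of these data known. The models were tested on simulated data. Alternatives covered the block, unit of replication, libraries, pseudocount, filter, scaling and variance moderation. Software was R 4.3.3, limma 3.58.1, Python 3.11.15, pandas 2.3.3, NumPy 2.4.6 and matplotlib 3.10.9.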

Additional observations from a re-analysis of the deposited data

Results flagged for a closer look

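The change from 2000 m to 3000 m differed between tissues for 18 genes by the limma interaction F test with adjustment over 13782 genes, which is why they are singled out. The largest change was in heart for 5 of them, in lung for 9 and in muscle for 4, and 7 had a mean FPKM below 0.5 in 2 tissues. The gene with the smallest p had F = 49.0 and an adjusted p of 0.00206, and it missed the threshold without the 3 libraries numbered 1 at 3000 m (adjusted p = 0.0504).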

How the results depend on the processing

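Of the 127 called genes, those also called were 127 with no replicate block (179 calls in all, 31 higher and 148 lower) and 116 of 127 with a pseudocount of 0.1 (134 calls). Fewer genes were called in the joint comparison with animal means (3, of which 0 higher), with heart and lung only or, equally, without muscle (9, 0 higher), without heart (5, 0 higher), without lung (56, 34 lower), with all 27 libraries in the fit (39, 10 higher and 29 lower), with no filter on low values (84, 9 higher) and, chosen after seeing the data, with a replicate block in which 2000 m muscle was unpaired (59, 7 higher and 52 lower). Median-of-ratios scaling gave 41 higher. Without a replicate number of an altitude, the count ran from 2 to 302 (0 to 61 higher, 2 to 241 lower), with 67 without number 2 at 2000 m and 88 without number 1 at 3000 m. Without 1 library it ran from 62 to 190 (7 to 35 higher, 55 to 155 lower), and it moved by over 1.5 times without heart replicates 1 (70) and 3 (79), lung replicate 3 (72) and muscle replicates 1 (62) and 3 (68) at 2000 m, and without heart replicates 2 (82) and 3 (80) at 3000 m. In the fits that left out 1 library, 49 of the 127 genes were called throughout. The cause of these moves was not tested, except that fits without a tissue hold fewer libraries.

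The number of genes whose change differed between tissues was 10 with no replicate block, 44 with all 27 libraries, 3 with a pseudocount of 0.1, 45 with no filter, 1 among genes above 0.5 FPKM in every tissue, 49 with 2000 m muscle unpaired, 0 to 38 without a replicate number and 5 to 38 without a library. Per tissue, the heart count was 71 with median-of-ratios factors, 11 among genes above 0.5 FPKM in every tissue, 10 fitted alone, 12 to 27 without a replicate number and 17 to 58 without a library. The lung count was 52 with all 27 libraries, 12 with a pseudocount of 0.1, 211 with no filter, 23 among genes above 0.5 FPKM in every tissue, 1 fitted alone, and 30 to 130 and 59 to 160 in the same leave-out fits. The muscle count was 1 fitted alone, and 4 to 123 and 27 to 123. Genes without overlap numbered 2512 of the 13782 tested when only the animal means had to be separate. That is a much weaker demand than separate libraries in each tissue, and no effect is read from this count. The named genes kept their direction throughout, which their choice from the same libraries favours. The test was missed in 0 of 39 alternatives by GOAT_ENSP00000364092, 6 by GOAT_ENSBTAP00000026100, 8 by GOAT_ENSBTAP00000014529 and 14 by goat_GLEAN_10001033. These alternatives list the fit without muscle again as heart and lung only. Counting error could not be set beside any value, since the depth is unknown.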

Other observations

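At 2000 m, muscle replicate 1 deviated from its group mean with heart and lung replicate 3 (r across genes 0.155 and 0.318), and muscle replicate 3 with heart and lung replicate 2 (0.282 and 0.293). The same-numbered values were lower, at 0.081 and -0.083 for number 1 and -0.239 and -0.331 for number 3. These are descriptions over genes, which are not independent, and the samples were not renumbered.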
